A study of Mus musculus with 8 samples.

Results

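The genes described here mark the cells that wrap blood vessels in the heart. They are 5 genes used as markers of pericytes (*Pdgfrb*, *Rgs5*, *Cspg4*, *Abcc9* and *Notch3*) and 5 genes of the contractile machinery of smooth muscle (*Myh11*, *Acta2*, *Tagln*, *Cnn1* and *Mylk*). They were chosen by name, all 10 are among the 54508 genes listed, and all 10 passed the filter on low values. Total RNA from hearts of *Rnaseh1* knockout mice (RNase H1-/-, n = 4) and wild type mice (RNase H1+/+, n = 4) was sequenced at 24 weeks of age, on a C57BL/6 background. RNase H1 is a nuclease that cuts RNA paired with DNA. In the knockout, exon 2 of *Rnaseh1*, flanked by loxP sites, was removed by Ckmm-cre, whose muscle creatine kinase promoter is active in heart and skeletal muscle. By the study's methods the controls carried the floxed gene without Cre, so an effect of Cre itself and an effect of losing RNase H1 cannot be told apart. The promoter is one of striated muscle, and no label states that mural cells lost the gene.

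Pericytes sit on capillaries and share the basement membrane of the endothelium, whereas smooth muscle cells form the contractile coat of arteries and larger veins. Endothelial platelet-derived growth factor B, acting on the receptor encoded by *Pdgfrb*, recruits both, and Notch3 signalling maintains them. Contractile smooth muscle expresses a shared set of genes that serum response factor switches on together with its coactivator myocardin, through a promoter element called the CArG box. Several of these genes are not private to mural cells in the heart: *Abcc9* is also expressed by cardiomyocytes, and *Acta2* by activated fibroblasts and by immature cardiomyocytes. In bulk tissue, fewer cells of a type and less RNA per cell cannot be told apart.

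Between 27429878 and 30505752 read pairs were counted per knockout library and between 31810103 and 40715847 per wild type library. Transcripts of mitochondrial DNA (mtDNA) took 9.46% to 12.3% of the pairs in the knockout and 60.2% to 62.6% in wild type, which left 24835342 to 27146119 pairs on nuclear genes in the knockout and 11896021 to 16213429 in wild type. Normalised counts of *Rnaseh1* were 182, 145, 166 and 166 in the knockout, against 129, 144, 158 and 129 in wild type, a log2 difference of 0.23 ± 0.12 (SE) that did not pass the test (limma-trend, adjusted p = 0.114). These counts sum all exons and therefore leave the deleted one unresolved, so the labels remain unchecked by them. The paper reports that *Rnaseh1* transcripts of knockout hearts lacked the deleted exon and were significantly reduced by quantitative PCR. The counts here were not lower, and the reason for this departure from the paper was not tested. The lower mtDNA share in the knockout has the direction that the paper reports for mtDNA transcripts by quantitative PCR at this age. Markers of cardiomyocytes were abundant in every library. Values below are normalised counts, that is, read pairs per gene divided by one size factor per library. Differences are log2(normalised count + 1), knockout minus wild type, with the standard error of limma-trend and p-values adjusted by Benjamini and Hochberg over 17046 genes. With libraries scaled instead to equal totals of nuclear genes the median gene moved by 0.23, and with equal totals of all genes by 1.42. Relative to that shift, every member stayed within 0.0218 of the differences given here.

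Neither set of genes moved as a block. Of the 10 members, *Acta2* and *Pdgfrb* were higher in the knockout, *Abcc9*, *Myh11*, *Rgs5* and *Mylk* were lower, and 4 did not pass the test (2 higher and 4 lower, where 30.7% of all genes tested were called higher, 28.4% lower and 59.1% in either direction). The pericyte and the contractile set each held 1 gene called higher, 2 called lower and 2 not called. The median log2 difference was -0.09 over the 5 pericyte genes and -0.36 over the 5 contractile genes, beside 0.02 over all genes tested. All libraries of one genotype lay above all of the other for 5 members, *Acta2* on the higher side and 4 on the lower, where 28.2% and 26.5% of all genes tested had groups apart in these directions. With equal totals of all genes 9 members were called higher and none lower. Under that scaling 14957 of the 17046 genes tested were called higher and 569 lower.

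**Figure D1:**
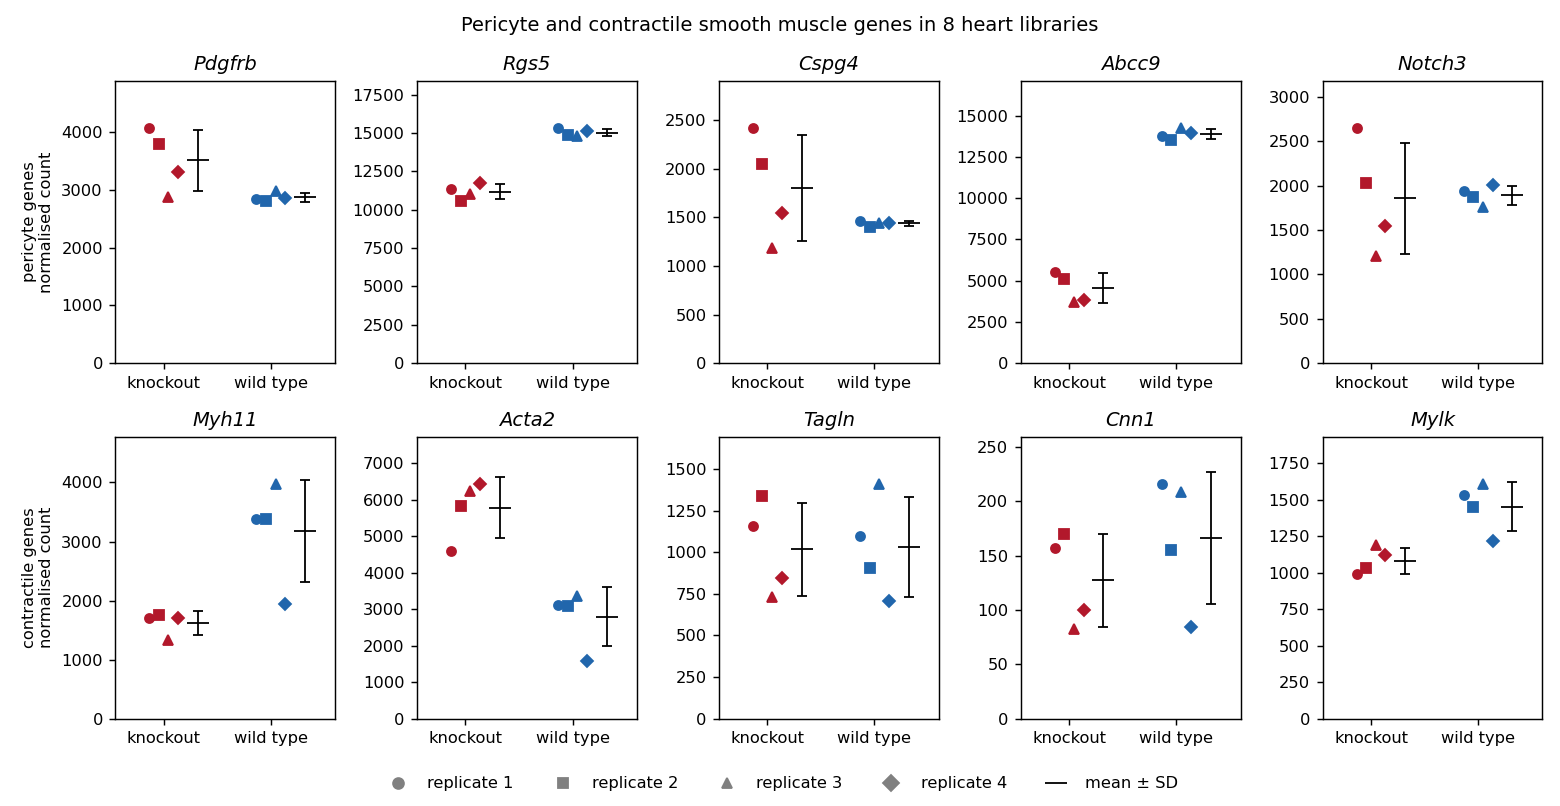
Normalised counts (linear axis from 0) of the 5 pericyte genes (top) and 5 contractile genes (bottom) in each library, knockout in red at the left and wild type in blue at the right, with the mean ± SD in black (n = 4). Knockout and wild type libraries do not overlap for *Rgs5*, *Abcc9*, *Myh11*, *Acta2* and *Mylk*, and wild type replicate 4 is the lowest wild type library for all 5 contractile genes.

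*Pdgfrb* encodes the receptor for platelet-derived growth factor B and lies on chromosome 18. Its normalised counts were 4076, 3792, 2878 and 3321 in the knockout, against 2853, 2802, 2991 and 2856 in wild type. The knockout libraries scattered upwards, and only replicate 3 fell within the narrow wild type range. The difference was 0.28 ± 0.10 (adjusted p = 0.0292), and it no longer passed the test when knockout replicate 1 or 2 or wild type replicate 1, 2 or 4 was left out (adjusted p from 0.0635 to 0.0758). *Pdgfb*, the endothelial ligand, averaged 1079 ± 465 in the knockout and 1104 ± 41.1 in wild type (SD, n = 4 each; log2 difference -0.13 ± 0.24, adjusted p = 0.665). *Pdgfd*, a second ligand of the same receptor, fell by 0.36 ± 0.08 on the log2 scale (adjusted p = 0.00298), and was the only one of the 5 ligand and receptor genes listed beside *Pdgfrb* to pass the test, with a median of 0.09 over the 5. With equal totals of nuclear genes the difference of *Pdgfd* was -0.13 and did not pass the test (adjusted p = 0.188).

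*Notch3*, the Notch receptor of mural cells (chromosome 17, 32120820 to 32166880, minus strand; positions here are on GRCm38 as deposited), had 2648, 2033, 1202 and 1541 normalised counts in the knockout, against 1935, 1869, 1754 and 2006 in wild type. Knockout replicates 1 and 2 exceeded every wild type library and replicates 3 and 4 lay below them all. No difference between genotypes was detected (-0.09 ± 0.20, adjusted p = 0.725, 95% interval -0.52 to 0.35), which leaves room for changes in either direction. Of 14 further genes of Notch signalling, 2 were higher, 3 lower and 9 not called, with a median of -0.11. The ligand gene *Jag1* averaged 682 ± 35.3 in the knockout and 730.4 ± 70.6 in wild type (log2 difference -0.09 ± 0.08, adjusted p = 0.341). *Jag2*, another ligand, fell by 0.81 ± 0.16 (adjusted p = 0.00135), and *Notch4*, a receptor of endothelial cells, rose by 0.53 ± 0.10 (adjusted p = 0.000993).

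*Cspg4*, which encodes the proteoglycan NG2 on the pericyte surface (chromosome 9, 56865033 to 56899870, plus strand), had 2420.1, 2054, 1189.9 and 1542 normalised counts in the knockout, against 1464, 1402, 1439.9 and 1445 in wild type. The wild type libraries spanned 1.04-fold, whereas the knockout libraries spanned 2.03-fold and lay on both sides of them. The difference of 0.27 ± 0.18 did not pass the test (adjusted p = 0.213, 95% interval -0.12 to 0.67). It passed without knockout replicate 3 (0.46, adjusted p = 0.00573).

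*Rgs5*, a regulator of G-protein signalling that is among the most abundant transcripts of pericytes (chromosome 1, 169655501 to 169695813, plus strand), had 11373, 10602, 11038 and 11735 normalised counts in the knockout, against 15335, 14885, 14818 and 15124 in wild type. Every knockout library was lower than every wild type library, and replicates of each genotype were close together. The difference was -0.43 ± 0.05 (adjusted p = 4.01e-05), which left the knockout at 74.4% of the wild type mean. Of the other members of its R4 family, 6 of 8 passed the filter, of which 2 were higher and 2 lower. *Rgs2*, which restrains Gq signalling in heart and vessels, fell by 1.81 ± 0.20 (adjusted p = 2.12e-05), and *Rgs3* fell by 0.29 ± 0.07 (adjusted p = 0.00551), a call lost with equal totals of nuclear genes (-0.056, adjusted p = 0.497). The 2 that rose had few counts. *Rgs18* had 30.6, 46.4, 105 and 44.1 normalised counts in the knockout, against 9.02, 27.1, 18.5 and 15.5 in wild type (1.57 ± 0.41, adjusted p = 0.00680). *Rgs1* had 13.2, 19.5, 192 and 39.7 in the knockout, against 4.51, 1.23, 0 and 0 in wild type (adjusted p = 0.00105).

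*Abcc9* encodes SUR2, the regulatory subunit of ATP-sensitive potassium channels (chromosome 6, 142587862 to 142702315, minus strand), and showed the largest difference of the 10 members. It had 5535, 5068, 3731 and 3825 normalised counts in the knockout, against 13751, 13515, 14251 and 13976 in wild type. The groups were far apart, with the knockout at 32.7% of the wild type mean (-1.63 ± 0.12, adjusted p = 9.73e-07). With equal totals of all genes the difference was -0.19 and did not pass the test (adjusted p = 0.162). All 3 partner genes of the channel were lower as well. *Kcnj11*, the pore subunit of the cardiomyocyte channel, averaged 1437 ± 135 in the knockout and 3375 ± 149.8 in wild type (-1.24 ± 0.07, adjusted p = 2.39e-07). *Kcnj8*, the pore subunit that mural cells pair with SUR2, averaged 667 ± 153 in the knockout and 932 ± 79.0 in wild type (-0.51 ± 0.15, adjusted p = 0.0121), but its groups overlapped and it lost its call with equal totals of nuclear genes (-0.28, adjusted p = 0.121). *Abcc8*, which encodes the related subunit SUR1, fell by 0.57 ± 0.13 (adjusted p = 0.00318).

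Within each library, the ratio of *Abcc9* to *Kcnj8* was 6.47, 7.28, 7.62 and 6.12 in the knockout, against 15.2, 15.8, 13.7 and 15.1 in wild type. *Abcc9* was therefore reduced more than its mural pore partner in each knockout library. The ratio of *Abcc9* to *Kcnj11* was 3.55, 4.03, 2.65 and 2.52 in the knockout, against 4.21, 4.05, 4.32 and 3.89 in wild type. These ranges overlapped through knockout replicate 2 alone. All 10 cardiomyocyte markers, led by *Ttn* and *Myh6*, were lower in the knockout, with a median of -1.61 and a summed level of 1491794 to 1832515 against 3655194 to 3791888 in wild type. None of these markers was at 0 in all libraries, and their part in the difference of *Abcc9* was not tested. The counts also do not separate the SUR2 splice forms of mural cells and cardiomyocytes.

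*Myh11*, the heavy chain of smooth muscle myosin and the most specific marker of the contractile set (chromosome 16, 14194535 to 14291372, minus strand), had 1698, 1750.5, 1327 and 1709.8 normalised counts in the knockout, against 3389.9, 3374, 3981 and 1946 in wild type. All knockout libraries were lower than all wild type libraries, although wild type replicate 4 came close to them. The difference was -0.93 ± 0.19 (adjusted p = 0.00182), with the knockout at 51.1% of the wild type mean.

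*Acta2*, which encodes smooth muscle alpha-actin (chromosome 19, 34241090 to 34255336, minus strand), moved the other way. It had 4582, 5829, 6248 and 6439 normalised counts in the knockout, against 3116, 3082, 3367 and 1590.1 in wild type. Every knockout library was above every wild type library, with a mean at 207% of wild type (1.10 ± 0.21, adjusted p = 0.00129). The difference lay between 0.85 and 1.21 when single libraries were left out. *Acta2* was the only member to be called higher under every scaling and every omission of a library.

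The promoter windows of *Acta2* and *Cnn1* are printed to set the one searched member window with a relaxed CArG box beside one without. They are taken from RefSeq on GRCm38.p6 and run from 250 bases before to 50 bases after the RefSeq transcription start, chr19:34255324-34255623 on the minus strand for *Acta2* and chr9:22099003-22099302 on the plus strand for *Cnn1*. Capitals mark matches to a relaxed CArG box, CCNNNNNNGG with at least 5 of the 6 inner bases A or T, a pattern that reads alike on both strands.
Acta2: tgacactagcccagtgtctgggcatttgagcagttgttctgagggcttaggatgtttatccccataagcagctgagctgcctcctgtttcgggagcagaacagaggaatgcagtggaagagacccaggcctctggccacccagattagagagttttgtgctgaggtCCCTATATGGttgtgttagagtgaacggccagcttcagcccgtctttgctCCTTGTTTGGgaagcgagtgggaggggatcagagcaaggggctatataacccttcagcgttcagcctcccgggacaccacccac
Cnn1: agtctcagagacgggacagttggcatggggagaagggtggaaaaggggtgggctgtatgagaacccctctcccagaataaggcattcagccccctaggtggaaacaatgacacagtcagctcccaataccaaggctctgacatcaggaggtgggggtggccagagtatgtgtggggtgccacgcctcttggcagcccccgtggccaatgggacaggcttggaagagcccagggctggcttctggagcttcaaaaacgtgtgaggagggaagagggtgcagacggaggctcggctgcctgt

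The *Acta2* window held 2 matches, the first bases of which lie 84 and 34 bases before the RefSeq start. The deposited gene starts downstream of it, at 34255336, so that distances from the deposited start are larger. *Acta2* was the only one of the 7 members with a window to hold such a match, and 9.98% of 32851 promoter windows of the same length hold one. *Pdgfrb*, *Myh11* and *Tagln* had no window and were not searched. Of the contractile genes only *Acta2*, *Cnn1* and *Mylk* were therefore searched. The *Mylk* window, chr16:34784700-34784999, lies inside the deposited gene. The strict pattern, with all 6 inner bases A or T, is in 1.63% of the windows and in none of the 7. The word GTGGGAA, to which the Notch effector RBPJ binds, or its reverse complement TTCCCAC, is in 6.38% of all windows and in none of the 7. A match is a match of letters, and the lack of one concerns these windows alone. Whether a match bears on the difference of any gene was not tested.

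*Tagln*, which encodes the actin-binding protein transgelin (chromosome 9, 45929619 to 45936058, minus strand), had 1157, 1340.0, 730.5 and 845 normalised counts in the knockout, against 1099, 906, 1412 and 704 in wild type. The groups overlapped and no difference was detected (-0.01 ± 0.23, adjusted p = 0.967, 95% interval -0.52 to 0.50). *Cnn1*, which encodes calponin (chromosome 9, 22099216 to 22109630, plus strand), was the scarcest member, with 157, 169.6, 82.1 and 100.2 in the knockout, against 216, 155, 209 and 84.6 in wild type. Here, too, the groups overlapped (-0.36 ± 0.32, adjusted p = 0.360, 95% interval -1.06 to 0.35).

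*Mylk*, the kinase that phosphorylates myosin light chains to start contraction (chromosome 16, 34745210 to 35002420, plus strand), had 990.4, 1033, 1188 and 1122 normalised counts in the knockout, against 1530.3, 1449, 1611 and 1221 in wild type. The groups did not overlap, with wild type replicate 4 closest to the knockout (-0.42 ± 0.09, adjusted p = 0.00305). With equal totals of nuclear genes the difference was -0.19 and did not pass the test (adjusted p = 0.119). The related kinases of striated muscle were lower too. *Mylk3*, the cardiac form, averaged 6201 ± 662 in the knockout and 14005 ± 463 in wild type (adjusted p = 3.77e-07), and *Mylk4* fell by 1.70 ± 0.23 on the log2 scale (adjusted p = 9.55e-05). The ratio of *Mylk* to *Mylk3* was accordingly higher in the knockout, at 0.159 to 0.189 against 0.0860 to 0.115 in wild type.

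**Figure D2:**
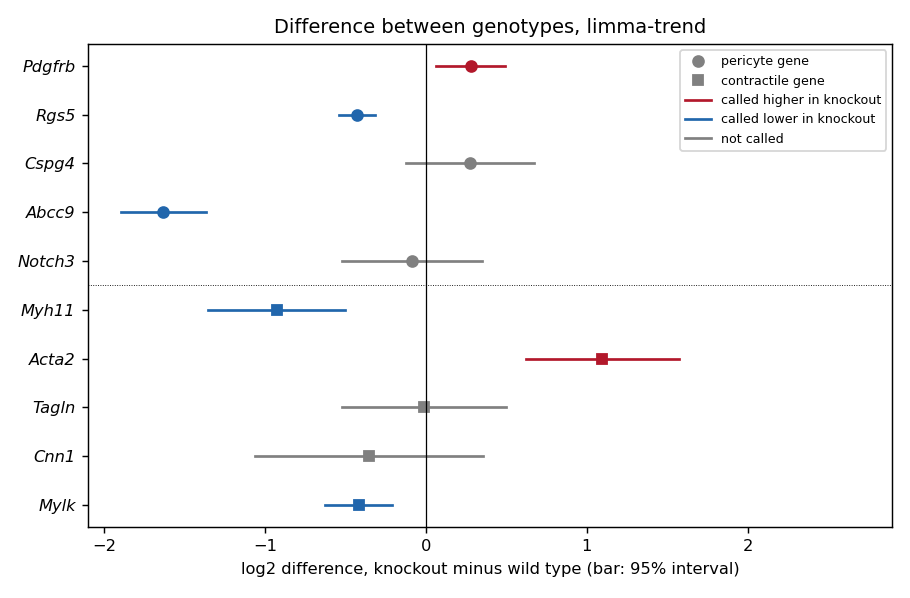
Log2 difference of each member, knockout minus wild type, with its 95% interval (bars) from limma-trend, red where called higher, blue where called lower and grey where not called. Circles are pericyte genes and squares contractile genes; the values run from -1.63 for *Abcc9* to 1.10 for *Acta2*, and both sets lie on both sides of 0.

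Ratios within a library do not depend on how libraries were scaled. Ratios of *Abcc9* to the other pericyte members were not computed, so the 2 sets are not ranked by them. *Acta2* over *Myh11* was 2.70, 3.33, 4.71 and 3.77 in the knockout, against 0.919, 0.913, 0.846 and 0.817 in wild type, a ratio of the means of 4.15. The wild type libraries were within a narrow band, including replicate 4, in which both genes were low. *Tagln* over *Myh11* was also higher in every knockout library (0.681, 0.765, 0.550 and 0.494) than in any wild type library (0.324, 0.268, 0.355 and 0.362), although *Tagln* itself showed no difference. *Acta2* over *Tagln* ranged from 3.96 to 8.55 in the knockout and from 2.26 to 3.40 in wild type. The ratios of *Cnn1* and of *Mylk* to *Myh11* overlapped between the genotypes. Among pericyte genes, *Rgs5* over *Pdgfrb* ranged from 2.79 to 3.83 in the knockout and from 4.95 to 5.38 in wild type, whereas *Cspg4* over *Pdgfrb* (0.413 to 0.594 against 0.481 to 0.513) and *Notch3* over *Pdgfrb* (0.418 to 0.650 against 0.586 to 0.703) overlapped. These ratios were chosen among members with known values and are given without a test.

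**Figure D3:**
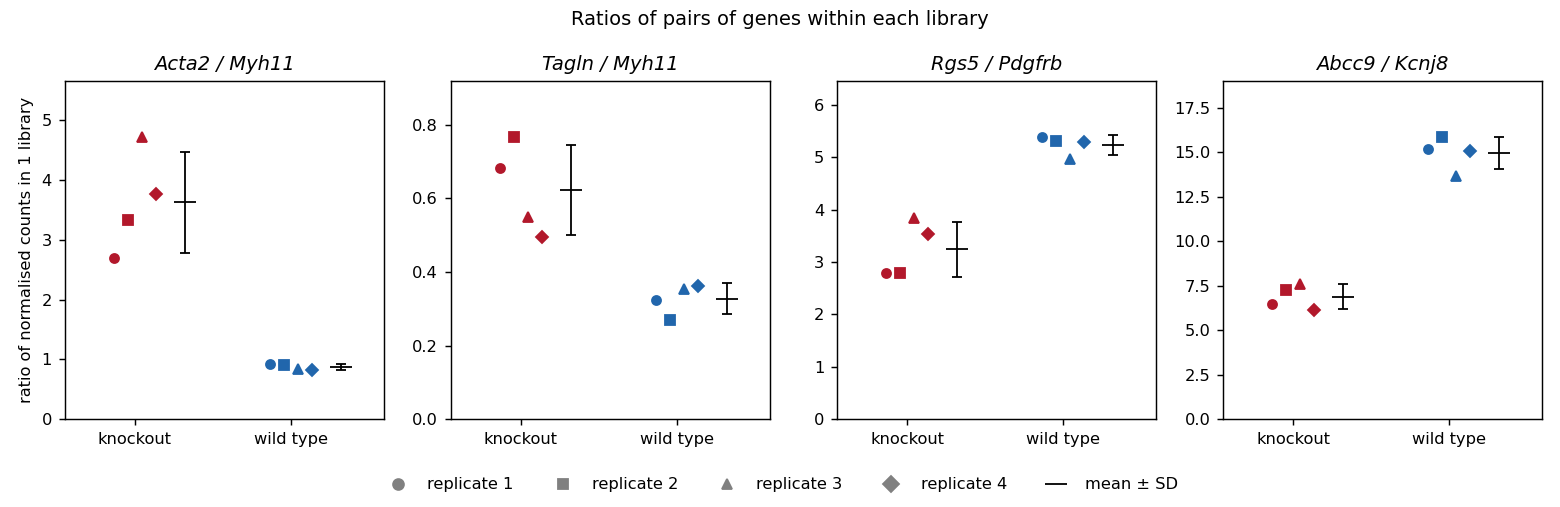
Ratios of normalised counts of 2 genes in the same library (linear axis from 0), knockout in red at the left and wild type in blue at the right, with the mean ± SD in black (n = 4). *Acta2* over *Myh11* and *Tagln* over *Myh11* are higher in all 4 knockout libraries, and *Rgs5* over *Pdgfrb* and *Abcc9* over *Kcnj8* are lower in all 4.

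Compared by mean log2 level, the pericyte and contractile sets did not part. The mean log2 level of the 5 pericyte genes was 11.78 ± 0.29 in the knockout and 12.10 ± 0.02 in wild type (SD, n = 4 each), and that of the 5 contractile genes was 10.02 ± 0.17 in the knockout and 10.15 ± 0.42 in wild type. The contractile mean minus the pericyte mean was -2.04, -1.69, -1.63 and -1.68 in the knockout, against -1.76, -1.89, -1.59 and -2.58 in wild type. The ranges overlapped, and the difference of 0.20 between the group means became -0.01 without wild type replicate 4. It was -0.55 with the median in place of the mean, and -0.44 when *Abcc9* and *Acta2*, the members with the largest differences, were left out. Without *Abcc9* the pericyte mean was 11.69 ± 0.29 in the knockout and 11.69 ± 0.02 in wild type. Without *Acta2* the contractile mean was 9.41 ± 0.24 in the knockout and 9.84 ± 0.41 in wild type. Summed counts of the pericyte genes, in which *Rgs5* and *Abcc9* are the most abundant, were apart. They were 20040 to 26052 in the knockout and 34473 to 35408 in wild type. Summed counts of the contractile genes overlapped (8585 to 10216 in the knockout, 5546 to 10580 in wild type).

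The 10 members also varied to different extents within the genotypes. All 5 pericyte genes spread more among the knockout libraries than among the wild type libraries, with a median SD of 0.29 against 0.03 on the log2 scale. All 5 contractile genes did the reverse, with 0.22 in the knockout and 0.45 in wild type. Over all genes tested the medians were 0.20 in the knockout and 0.14 in wild type, and 61.7% of genes spread more in the knockout. A wider spread in the knockout was not particular to pericyte genes: it was seen for 15 of 18 further pericyte genes, 10 of 10 fibroblast, 9 of 10 cardiomyocyte and 9 of 10 endothelial markers. The further contractile genes did not follow the 5 contractile members, since 13 of 22 spread more in the knockout. Wild type replicate 4 was the lowest wild type library for 5 of 5 contractile and 0 of 5 pericyte genes, where it was so for 24.2% of all genes. Among 22 further contractile genes it was the lowest for 11. In the knockout, replicate 1 was the highest library for 4 of 5 pericyte and 0 of 5 contractile genes (25.6% of all genes), and replicate 3 was the lowest for 4 of 5 and 3 of 5 (36.0% of all genes). In the knockout libraries *Pdgfb* followed the same order, with 1670, 1228, 659 and 761. Replicate 1 was the highest knockout library for 10 of 18 further pericyte genes, 6 of 10 cardiomyocyte and 5 of 10 endothelial markers. It was so for 0 of 10 fibroblast and 1 of 10 macrophage markers. Without wild type replicate 4, *Myh11* differed by -1.15, *Mylk* by -0.50 and *Cnn1* by -0.65 (adjusted p = 0.0628 for *Cnn1*). *Tagln* then differed by -0.18 (adjusted p = 0.516). The rise of *Acta2* was then 0.85, its lowest value when single libraries were left out.

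**Figure D4:**
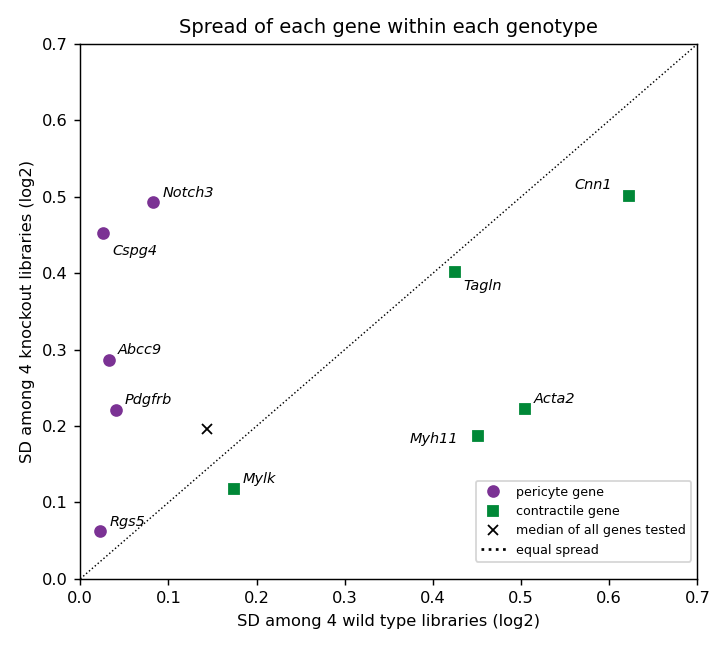
Standard deviation of log2(normalised count + 1) among the 4 knockout libraries (vertical axis) against that among the 4 wild type libraries (horizontal axis) for each member, with the line of equal spread dotted. All 5 pericyte genes (circles) lie above the line and all 5 contractile genes (squares) below it; the cross is the median of all genes tested (0.20 in the knockout, 0.14 in wild type).

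Levels of different genes were compared per kilobase of merged exon. In the knockout, *Acta2* was the most abundant member at 2630 normalised counts per kb and *Rgs5* followed at 2461, with ranges that overlapped. Below them came *Pdgfrb* at 642, *Abcc9* at 542 and *Tagln* at 512, each overlapping its neighbour, then *Notch3* at 229, *Myh11* at 213, *Cspg4* at 151, *Mylk* at 96.2 and *Cnn1* at 46.5. In this lower group *Notch3*, *Myh11* and *Cspg4* each overlapped the next gene in the order, and *Mylk* and *Cnn1* did not overlap. In wild type the order was led by *Rgs5* at 3309, *Abcc9* at 1657 and *Acta2* at 1270, whose ranges did not overlap. *Pdgfrb* at 525, *Tagln* at 518 and *Myh11* at 418 followed, then *Notch3* at 234, *Mylk* at 129, *Cspg4* at 121 and *Cnn1* at 60.8. *Tagln* overlapped *Pdgfrb* and *Myh11* in wild type, and *Mylk* overlapped *Cspg4*.

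Further genes listed for both cell types were also called in both directions, where 59.1% of all genes tested were called in either direction. As with the members, genes of these lists can be expressed by other cells too. Of 18 further pericyte genes 2 were higher, 7 lower and 9 not called, with a median of -0.38. *Vtn*, which encodes vitronectin, fell by 1.22 ± 0.12 on the log2 scale (adjusted p = 7.76e-06). *Gja4*, which encodes a connexin of arterial endothelium and mural cells, rose by 1.19 ± 0.13 (adjusted p = 1.63e-05). *Art3*, an ADP-ribosyltransferase gene with the most counts of the list, fell by 1.17 ± 0.38 (adjusted p = 0.0213) with 967, 1081, 4206 and 2138 normalised counts in the knockout, against 3939, 3624, 4023 and 4227 in wild type, and it lost its call without knockout replicate 2 or wild type replicate 4 (adjusted p = 0.0549 and 0.0533). *Steap4*, a metalloreductase gene, and *Tbx18*, a transcription factor gene of mural cells, showed differences of -0.01 ± 0.10 and 0.05 ± 0.15 (adjusted p = 0.953 and 0.808).

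Of the 22 further contractile genes 9 were higher, 7 lower and 6 not called, with a median of -0.07. *Smtn*, which encodes smoothelin, fell by 1.65 ± 0.11 (adjusted p = 5.45e-07), and *Synpo2*, an actin-bundling protein of the Z-disc and of smooth muscle, fell by 1.62 ± 0.07 (adjusted p = 3.81e-08). *Itga8*, an integrin gene of vascular smooth muscle, fell by 1.17 ± 0.35 (adjusted p = 0.0139), with 262, 347, 162 and 335 in the knockout, against 869, 557, 896 and 299 in wild type, where replicate 4 fell among the knockout libraries as it did for *Cnn1*. *Nrip2*, a nuclear receptor interacting protein, had the largest difference of the list and rose by 3.31 ± 0.14 (adjusted p = 2.19e-08).

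Parts of the contractile apparatus with *Myh11* and *Mylk* also divided. The light chain genes rose: *Myl9*, the regulatory chain of smooth muscle, by 0.53 ± 0.13 (adjusted p = 0.00448), and *Myl6*, the essential chain, by 1.15 ± 0.07 (adjusted p = 3.00e-07). *Ppp1r12b*, a targeting subunit of myosin phosphatase in striated muscle, fell by 0.97 ± 0.06 (adjusted p = 3.12e-07). In all, 6 of 15 tested genes of myosin light chain phosphorylation were higher and 5 lower, with a median of 0.11.

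Among the regulators of contractile genes, *Myocd*, which encodes myocardin and is also expressed by cardiomyocytes, fell by 0.98 ± 0.17 (adjusted p = 0.000611). It had 849, 991, 1666 and 1279.8 normalised counts in the knockout, against 2381, 2134, 2367 and 2269 in wild type, so that the groups were apart. *Srf*, which encodes serum response factor, averaged 1669 ± 217 in the knockout and 1465 ± 81.2 in wild type (0.18 ± 0.09, adjusted p = 0.114), and it passed the test without knockout replicate 2 (adjusted p = 0.0368). *Fhl2*, a cofactor of serum response factor that is abundant in cardiomyocytes, fell by 2.05 ± 0.15 (adjusted p = 1.06e-06). Of the 14 genes of serum response factor and myocardin, 4 were higher and 3 lower, with a median of 0.07.

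Other actin genes were called in both directions. *Acta1*, the skeletal muscle form that the fetal and stressed heart expresses, rose by 2.56 ± 0.30 (adjusted p = 3.38e-05), and the cytoplasmic forms *Actb* and *Actg1* rose by 0.72 ± 0.11 and 0.85 ± 0.09 (adjusted p = 0.000247 and 1.85e-05). *Actc1*, the cardiac form, fell by 1.06 ± 0.24 (adjusted p = 0.00322). *Actg2*, the enteric smooth muscle form, averaged 26.5 ± 8.25 in the knockout and 34.8 ± 14.3 in wild type (-0.35 ± 0.31, adjusted p = 0.353). *Acta2* thus shared its direction with *Acta1* and the cytoplasmic actins. At most 0.326% of the 50-base words of *Acta2* transcripts also occur in another gene's transcripts.

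**Figure D5:**
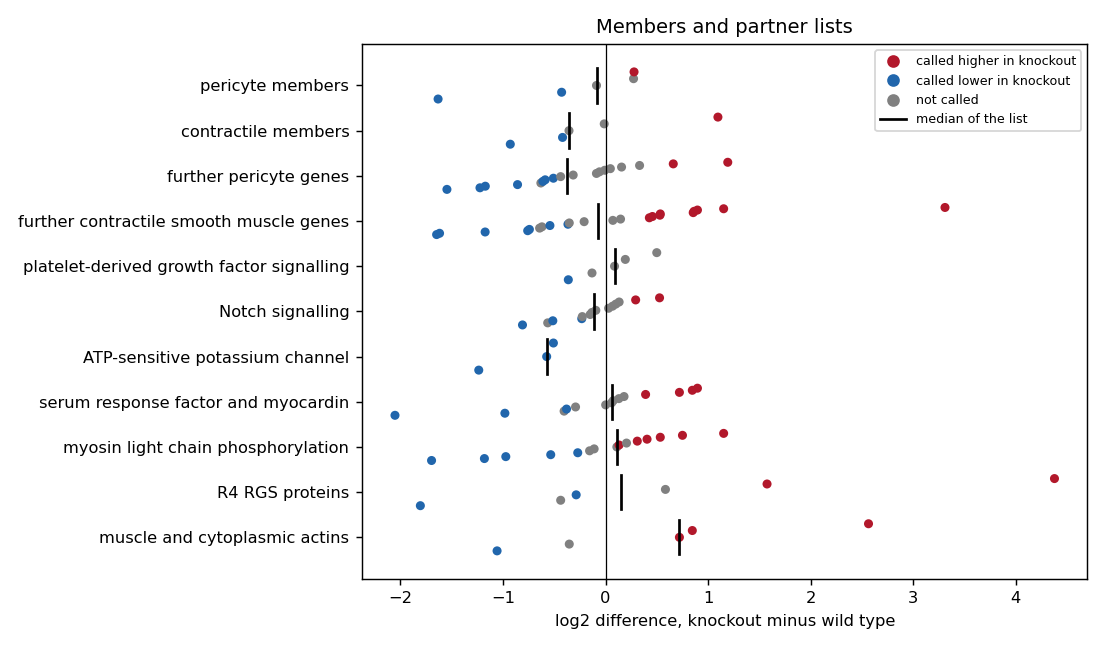
Log2 difference, knockout minus wild type, of each tested gene (points) in the pericyte and contractile members and in the partner lists, red where called higher, blue where called lower and grey where not called, with the median of each list as a black bar. The medians run from -0.57 for the ATP-sensitive potassium channel to 0.72 for the actins, and the channel is the only partner list with no point above 0.

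Some lists of markers of other cell types moved with the genotype and others did not. Activated fibroblast markers, led by *Postn* and *Col8a1*, were higher for 9 of 10 genes with a median of 3.09, and their summed level was 21483 to 36496 in the knockout against 2745 to 3509 in wild type. Fibroblast markers were higher for 6 of 10 and lower for 1 (median 0.91), and all 6 stress and fetal cardiomyocyte genes were higher (median 1.77, summed level 215346 to 362210.0 against 89988 to 94699). None of these markers was at 0 in all libraries, and their part in the rise of *Acta2* was not tested. Endothelial markers were higher for 1 of 10 and lower for 3, with a median of -0.10 and summed levels that overlapped (32076 to 36918 in the knockout, 32008 to 35225 in wild type). Macrophage markers were higher for 8 of 10 (median 1.42), nerve and Schwann cell markers lower for 3 of 5 tested (median -0.76), and none of 5 tested mesothelium markers was called (median -0.13).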

How the data were processed

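The authors deposited a signal, counts divided by one DESeq2 size factor per library (DESeq2 1.18.1, R 3.5.1). By the study's methods, HISAT2 2.10 had aligned the read pairs to mm10 and stranded counting had used featureCounts 1.6.3 with Ensembl gene models. A second deposited sheet holds the authors' own fold changes and p-values and was not used. Whole read pairs came back for 100% of values above 0 (tolerance 0.01) in each of 8 libraries. Of 54508 genes, 22980 had no read. A repeated block of 13 mtDNA rows was skipped.

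Genotypes were compared with limma-trend (limma 3.58.1, R 4.3.3) on log2(normalised count + 1), two-sided, for 17046 genes with a mean of at least 10, with genotype as the only term and a threshold of 0.05. edgeR 4.0.16 (5237 genes higher, 4786 lower, against 5241 and 4839) and DESeq2 1.42.0 on the recovered read counts, 3 other scalings, pseudocounts of 0.5 and 5, other filters, a replicate block and omission of each library were alternatives. The fit was tested on simulated data. No label states that replicate numbers pair the animals. Deviations of same-numbered samples correlated by -0.09 to 0.07, and those of differently numbered samples by -0.11 to 0.10, which cannot exclude a pairing. No 2 libraries agreed within sampling noise. A p-value here reflects no more than how far these animals' libraries differ.

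The members and the gene lists were chosen with earlier results of these data known. The partner lists covered further pericyte and contractile genes, platelet-derived growth factor and Notch signalling, the ATP-sensitive potassium channel, serum response factor and myocardin, myosin light chain phosphorylation, R4 RGS proteins and actins; some genes stand in more than one list. Named were all members, 10 partner genes whatever their values, any gene of lists of up to 8, and in longer lists the 4 largest called and 2 smallest differences, or fewer; the result of one gene that the rule names is not reported here. Of the members, 7 had a RefSeq promoter window. Only genes on the opposite strand overlap members, and counting was stranded.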

Additional observations from a re-analysis of the deposited data

Results flagged for a closer look

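Of 26 groups of 4 values (the 10 members and 3 set measures in each genotype), 3 held a library far from the other 3. Chance gives about 1 in 20 for independent groups. These groups share libraries and members, so their count cannot be set against that rate. For *Myh11* the lowest knockout library was replicate 3, and its gap to the next library was 0.877 of the knockout range. For *Acta2* the lowest wild type library was replicate 4, with a gap of 0.840 of the wild type range. For the contractile mean minus the pericyte mean, knockout replicate 1 was the lowest, with a gap of 0.845 of the knockout range. Without these libraries *Myh11* and *Acta2* kept their direction and stayed past the threshold.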

How the results depend on the processing

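Each member and each partner gene named was recomputed under up to 18 alternatives, those of the partner genes added after the data had been seen. The choice of scaling mattered most, since mtDNA takes a different share of each genotype's reads. With equal totals of all genes, 14957 genes were called higher and 569 lower, 9 members were called higher and 0 lower, and the log2 difference turned positive for *Rgs5* (1.02), *Notch3* (1.35), *Myh11* (0.51), *Tagln* (1.43), *Cnn1* (1.07), *Mylk* (1.02), *Kcnj8* (0.93), *Kcnj11* (0.21), *Abcc8* (0.87), *Vtn* (0.22), *Art3* (0.27), *Steap4* (1.43), *Pdgfb* (1.31), *Pdgfd* (1.08), *Jag1* (1.35), *Jag2* (0.63), *Rgs3* (1.16), *Myocd* (0.46), *Itga8* (0.27), *Mylk3* (0.26), *Ppp1r12b* (0.47), *Actc1* (0.39) and *Actg2* (1.03). *Abcc9*, *Rgs2*, *Smtn* and *Mylk4* kept their direction and lost their calls. With equal totals of nuclear genes, 7355 genes were called higher and 3268 lower, the difference turned positive for *Notch3* (0.14), *Tagln* (0.22), *Steap4* (0.22), *Pdgfb* (0.10) and *Jag1* (0.14), the calls of *Mylk*, *Kcnj8*, *Pdgfd*, *Rgs3* and *Art3* were lost, and *Cspg4* (0.50, adjusted p = 0.0309) and *Srf* were called higher. With TMM factors *Tagln* (0.023) and *Steap4* (0.028) changed sign.

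Leaving out single libraries gave 1 to 3 members called higher and 4 called lower in each case, and moved the contractile minus pericyte difference between -0.01 and 0.32. The differences of genes that were not called ran from -0.28 to 0.10 for *Notch3*, -0.18 to 0.15 for *Tagln*, -0.062 to 0.085 for *Steap4*, -0.074 to 0.14 for *Tbx18* and -0.37 to 0.072 for *Pdgfb*, across 0 in each. The contractile minus pericyte difference was -0.55 with medians and -0.44 without *Abcc9* and *Acta2*, an omission chosen after seeing the data. With the replicate block, 5076 genes were higher and 4645 lower and no member changed its call (*Pdgfrb*, adjusted p = 0.0408). edgeR and DESeq2 on recovered reads called the same 2 members higher and 4 lower, and *Art3* was not called by either (adjusted p = 0.0665 and 0.0831). With 4 libraries per genotype, the intervals of *Cspg4*, *Notch3*, *Tagln* and *Cnn1* include differences in either direction.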
